A study of Mus musculus with 32 samples.

Results

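Chemokine ligand and chemokine receptor genes were described in quadriceps muscle of mice with and without functional Col6a2, the gene of a collagen VI chain found in the matrix around muscle fibres. Members were all genes named Ccl, Cxcl, Ccr or Cxcr followed by a digit, together with Xcl1, Xcr1, Cx3cl1 and Cx3cr1. This gave 66 gene IDs with 61 distinct names, of 53801 IDs listed: 45 ligands, 2 Ccl19 pseudogenes and 19 receptors. Muscle RNA of 32 mice was sequenced, 1 library a mouse, in 8 groups of 4. Females and males, either wild type (WT) or Col6a2-/-, were sampled at 5 weeks and at 25 weeks. Per the labels, the knockout allele Col6a2tm1(KOMP)Vlcg was made in C57BL/6N and crossed back to C57BL/6J for 5 generations. Both WT and Col6a2-/- mice were offspring of heterozygous breeders, and no group received a treatment. The allele is carried in all tissues, and RNA came from sections of frozen muscle with all cell types in them. Replicates are numbered 1 to 4 as in the titles, and each is a separate mouse. By its title, the series asks how collagen VI affects the availability of TGFβ.

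Chemokines are small secreted proteins that guide the movement of leukocytes. They are classed by their first cysteines: adjacent in CC ligands, separated by a single residue in CXC ligands and by a longer gap in CX3CL1, and most act through receptors coupled to Gi proteins that are named after the ligand class. In injured muscle, CCL2 and its receptor CCR2 are best known for bringing in monocytes that become macrophages, CXCL9 and CXCL10 are induced by interferon and act on CXCR3, and CXCL12 acts on CXCR4.

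The cysteine spacing that gives the classes their names is shown for 8 of the ligands on which the results turn. The lines give stretches of coding sequence, 5′ to 3′, from GENCODE M21 transcripts (mouse build GRCm38). Capitals mark the first pair of cysteine codons that lie at the spacing of the gene's class. The spacing was thus set in advance, and any earlier cysteine codon outside such a pair is not marked.
Ccl2: ccactcaccTGCTGCtactcattc
Ccl8: ccagtcaccTGCTGCtttcatgta
Ccl6: tcttcagacTGCTGCttctcttat
Ccl9: tcttcagatTGCTGCctgtcctat
Cxcl9: aatgcacgaTGCtccTGCatcagcacc
Cxcl10: acggtccgcTGCaacTGCatccatatc
Cxcl16: gctggaagtTGTtctTGTgatcgtacc
Cx3cl1: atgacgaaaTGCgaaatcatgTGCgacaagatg
No codon lies between the pair in Ccl2 (chr11:82035571-82037453, + strand), Ccl8 (chr11:82115185-82116799, +), Ccl6 (chr11:83587882-83593087, −) and Ccl9 (chr11:83572919-83578636, −). A single codon lies between them in Cxcl9 (chr5:92321347-92328079, −), Cxcl10 (chr5:92346638-92348889, −) and Cxcl16 (chr11:70453983-70459984, −), and 3 codons in Cx3cl1 (chr8:94772009-94782427, +). All 8 are annotated as protein coding.

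Values are in TPM (transcripts scaled for length and library size, so that levels of different genes can be compared), as computed by the authors. Read counts were not used here, so depth is known only in relative terms: the ratio of deposited coverage to FPKM ran from 6.78 to 13.7 over libraries, with a median of 8.95. Col6a2 was checked first. It had 19.9 to 51.2 TPM in WT at 5 weeks and 6.60 to 13.6 at 25 weeks, against at most 0.171 TPM in every Col6a2-/- library, so no genotype label was contradicted. Genes of the muscle fibre were abundant in all libraries, with Acta1 at 4534 TPM or more and Ckm at 2174 or more. Differences are reported on the log2(TPM + 1) scale from a limma fit over the 12817 genes that reached 1 TPM in 4 or more libraries. A gene is said to be called where its Benjamini-Hochberg adjusted p over these genes was under 0.05. Changes of scarce genes come out too small on this scale, so ratios of mean TPM are given as well.

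Most chemokine and receptor genes were scarce in quadriceps. Of the 66 IDs, 38 stayed below 1 TPM in all 32 libraries, and 5 of these (Ccl1, Ccl20, Ccl26, Cxcl15 and Ccr6) were listed at 0 throughout. Only 10 reached 1 TPM in every library, and 24 passed the filter for testing: 21 ligands and the 3 receptors Ccr2, Cxcr4 and Cx3cr1. In WT muscle the highest levels belonged to Cxcl14, a ligand with a poorly defined receptor, Ccl11 (eotaxin), which acts on CCR3 of eosinophils, and Cxcl12, the stromal ligand of CXCR4. At 5 weeks in WT, Cxcl14 had 17.9 ± 5.27 TPM, Ccl11 had 12.1 ± 2.71 and Cxcl12 had 10.7 ± 2.25 (SD, n = 8). These neighbours in the order differed by about their spread or less. At 25 weeks in WT the order was Cxcl12 (13.4 ± 2.46 TPM), Ccl11 (12.8 ± 2.81) and Cxcl14 (11.2 ± 2.89), again within the spread. In Col6a2-/- muscle at 5 weeks Ccl6 stood first, at 17.3 ± 5.13 TPM, ahead of Cxcl14 (14.5 ± 5.30) and Cxcl12 (14.4 ± 5.52). This order too lay within the spread. Summed over the 19 receptors, TPM ran from 2.94 to 6.60 in WT at 5 weeks, with a median of 3.46, and from 5.65 to 17.8 in Col6a2-/-, with a median of 14.1. The 45 ligands summed to 58.0 to 88.2 TPM in WT (median 70.0) and 58.3 to 157 in Col6a2-/- (median 105) at that age. Both sums overlapped between the genotypes.

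**Figure D1:**
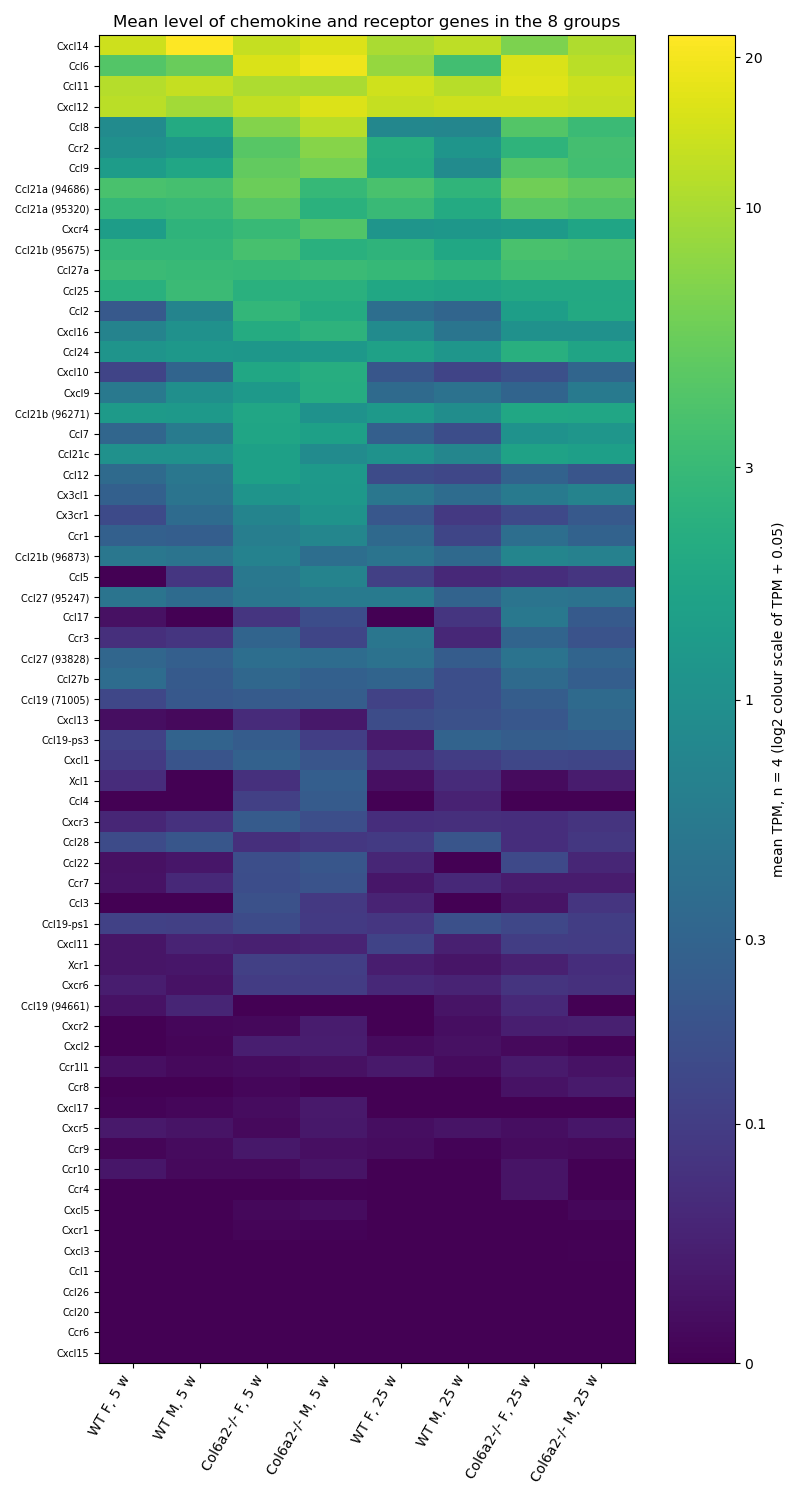
Mean TPM of chemokine and receptor gene IDs (rows) in the 8 groups (columns, n = 4 libraries each), on a colour scale of log2(TPM + 0.05). Cxcl14, Ccl11, Cxcl12 and Ccl6 form the yellow and light green rows at the top, most receptors are blue to purple, and the 5 darkest rows at the bottom are listed at 0 in all groups.

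At 5 weeks, the ligands Ccl2, Ccl6, Ccl7, Ccl8, Ccl9, Ccl12, Cxcl9, Cxcl10, Cxcl16 and Cx3cl1 and the receptors Ccr2, Cx3cr1 and Cxcr4 were higher in Col6a2-/- than in WT muscle, while Cxcl14, Ccl11 and Cxcl12, the ligands most abundant in WT muscle, were not called. In all, 13 of 24 tested members were higher and none was lower, where 25.4% of all tested genes were called, 23.2% as higher and 2.14% as lower. Changes of the 24 had a median of 0.57, against 0.145 for all tested genes, and 20 of 24 were above 0, as were 80.0% of all genes. The filter bears on this count. Of the 24 members, 8 reached 1 TPM in fewer than 4 WT libraries and so passed through their level in Col6a2-/- muscle. They were Ccl2, Ccl7, Ccl12, Cxcl9, Cxcl10, Cxcl16, Cx3cl1 and Cx3cr1. All 8 were called, against 5 of the other 16. Scaling bears on it too: with median-of-ratios factors the median change of all genes became -0.0145, and 11 members were higher and 2 lower of the 22 that still passed the filter (Ccl12 and Cx3cr1 did not). With quantile normalization 13 were higher and the same 2 lower. Those 2 were Ccl25 (-0.31, adjusted p 0.0128, with median-of-ratios factors) and Cxcl14 (-0.51, adjusted p 0.00845), whose changes were -0.16 (adjusted p 0.261) and -0.31 (adjusted p 0.196) on the deposited scale.

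Ccl2, Ccl7, Ccl8 and Ccl12, CC ligands that lie in a cluster on chromosome 11, were all called at 5 weeks. Ccl2 had 0.177, 0.0768, 0.251 and 0.402 TPM in the 4 WT females and 0.881, 0.801, 0.683 and 0.549 in the 4 WT males. In Col6a2-/- muscle it had 2.44, 4.20, 4.05 and 0.458 TPM in females and 3.61, 1.80, 1.85 and 0.978 in males. All Col6a2-/- libraries but female replicate 4 lay above every WT library. The log2 change was 1.116 (SE 0.18, limma adjusted p 4.45e-05), and mean TPM was 5.07 times that of WT. Ccl8 (MCP-2) ran from 0.537 to 3.46 TPM in WT (median 1.07) and from 1.40 to 15.4 in Col6a2-/- (median 10.0). Its low Col6a2-/- values were those of female replicates 3 and 4, at 2.67 and 1.40 TPM, which overlapped with WT. Its change, 1.93 (SE 0.30, limma adjusted p 3.41e-05), was the largest among the tested members, and the ratio of means was 6.41. Ccl7 (MCP-3) ran from 0.138 to 0.764 TPM in WT and from 0.281 to 2.79 in Col6a2-/-, with 7 of 8 Col6a2-/- libraries above every WT library; its change was 0.81 (SE 0.18, limma adjusted p 0.00133). Ccl12 (MCP-5) ran from 0.1496 to 0.865 TPM in WT and from 0.381 to 3.43 in Col6a2-/-, with a change of 0.71 (SE 0.16, limma adjusted p 0.00229). Ccl11, which lies between Ccl7 and Ccl12, did not share this: it had 8.85 to 16.5 TPM in WT and 7.37 to 13.3 in Col6a2-/-, and its change was -0.21 (SE 0.17, limma adjusted p 0.363).

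Ccl6 and Ccl9, CC ligands made by myeloid cells in mice and known to act on CCR1, separated the genotypes fully at 5 weeks. Ccl6 had 4.59, 3.70, 4.19 and 4.67 TPM in WT females and 5.71, 3.98, 6.74 and 5.38 in WT males. In Col6a2-/- it had 19.1, 21.3, 13.3 and 9.38 TPM in females and 23.6, 16.3, 13.1 and 22.6 in males. The change was 1.61 (SE 0.21, limma adjusted p 1.74e-06), with a ratio of means of 3.56. Ccl9 ran from 1.17 to 2.27 TPM in WT (median 1.47) and from 3.20 to 8.23 in Col6a2-/- (median 5.50), a change of 1.32 (SE 0.15, limma adjusted p 2.07e-07). Members without overlap of 8 WT and 8 Col6a2-/- libraries at 5 weeks were Ccl6, Ccl9, Cx3cl1 and Ccr2, all higher in Col6a2-/-, where 1.18% of all tested genes were higher without overlap. Of these 4, Cx3cl1 reached 1 TPM in Col6a2-/- libraries alone.

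**Figure D2:**
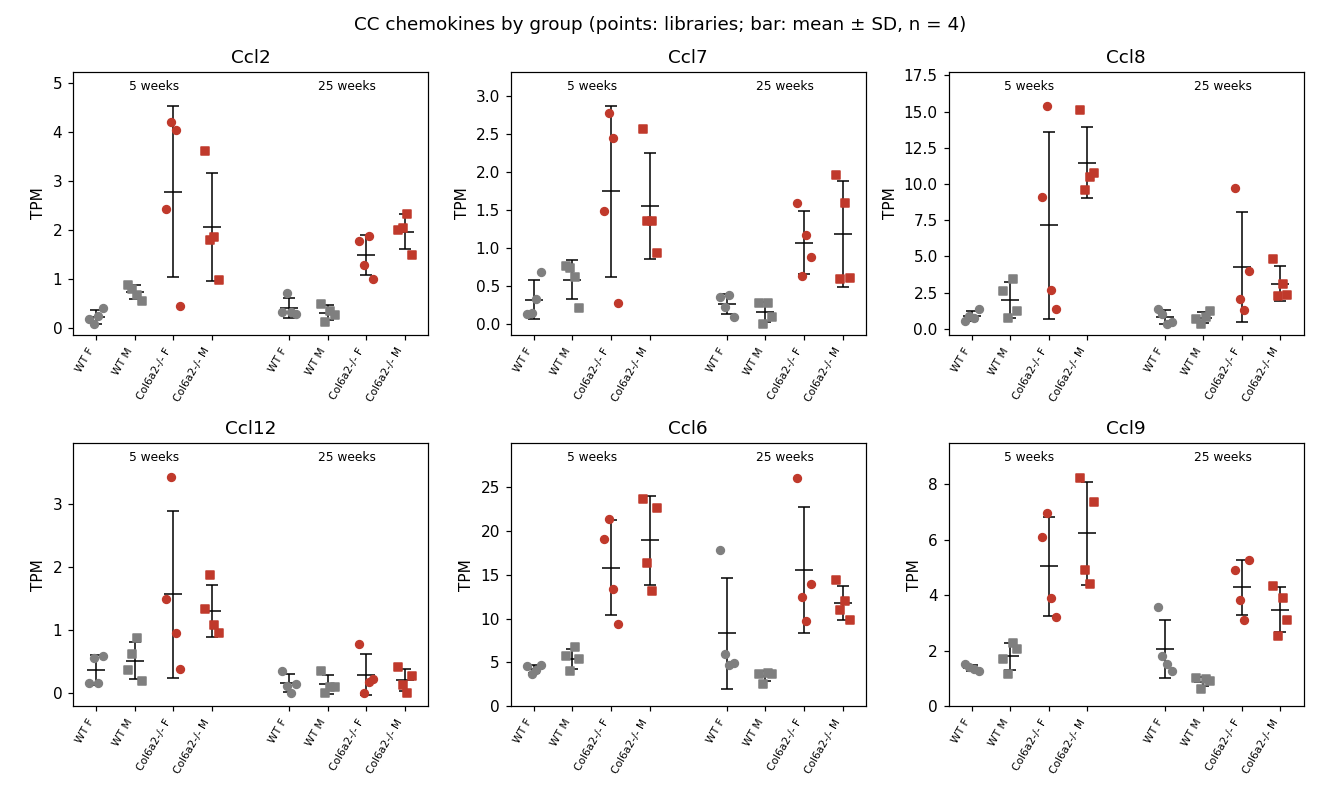
TPM of the CC ligands Ccl2, Ccl7, Ccl8, Ccl12, Ccl6 and Ccl9 in each library (points), with the mean and SD of each of the 8 groups (n = 4). Ccl6 and Ccl9 do not overlap between genotypes at 5 weeks, Ccl2 and Ccl7 do not at 25 weeks, and Ccl12 is below 1 TPM in all 25-week libraries.

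Among ligands of the other classes, Cxcl10, Cxcl9, Cxcl16 and Cx3cl1 were higher at 5 weeks. Cxcl10 (IP-10) was at 0.0495, 0.0171, 0.0714 and 0.358 TPM in WT females and 0.755, 0.142, 0.275 and 0.0539 in WT males. Col6a2-/- females had 2.19, 3.25, 1.70 and 0.209 TPM, and Col6a2-/- males had 3.07, 1.89, 1.68 and 1.999. Female replicate 4 fell within the WT range and the other 7 Col6a2-/- libraries lay above it. The change was 1.25 (SE 0.16, limma adjusted p 1.5e-06), and the ratio of mean TPM, 9.30, was the highest of the tested members. It was 14.5 without WT male replicate 1, the highest WT library, and 8.22 or more without any other 1 library. Cxcl10 overlaps Art3 on the opposite strand, which had a median of 40.8 TPM and a change of -0.18 (adjusted p 0.156); the use of strand in counting is not stated. Cxcl9 (MIG), its neighbour, ran from 0.361 to 1.19 TPM in WT and from 0.522 to 2.83 in Col6a2-/-, with a change of 0.58 (SE 0.12, limma adjusted p 0.000792). Cxcl11, the other interferon-inducible ligand of CXCR3, is annotated as a polymorphic pseudogene and did not pass the filter: it had 0.00407 to 0.0877 TPM in WT and 0.0129 to 0.0590 in Col6a2-/-, with full overlap. Cxcl16, a transmembrane ligand of CXCR6 and a scavenger receptor, ran from 0.544 to 1.21 TPM in WT and 0.749 to 3.62 in Col6a2-/-, a change of 0.76 (SE 0.12, limma adjusted p 2.77e-05). Cx3cl1 (fractalkine), a membrane-bound ligand, ran from 0.201 to 0.574 TPM in WT and 0.639 to 1.495 in Col6a2-/- without overlap, a change of 0.65 (SE 0.08, limma adjusted p 1.43e-06). Cxcl12 had 6.38 to 13.3 TPM in WT and 5.92 to 22.3 in Col6a2-/-, a change of 0.33 that was not called (SE 0.18, limma adjusted p 0.179).

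Of the receptors, Ccr2, Cxcr4 and Cx3cr1 were all called as higher at 5 weeks. Ccr2 (chr9:124101950-124113557, + strand), the receptor of inflammatory monocytes for CCL2, CCL7 and CCL12, had 0.932, 1.121, 1.11 and 0.921 TPM in WT females and 1.80, 0.866, 1.43 and 0.738 in WT males. It had 4.82, 7.44, 3.03 and 2.62 TPM in Col6a2-/- females and 9.52, 7.06, 9.05 and 3.61 in males. Every Col6a2-/- library exceeded every WT library, with a change of 1.61 (SE 0.20, limma adjusted p 1.24e-06) and a ratio of means of 5.29. Cx3cr1, the receptor of fractalkine on monocytes and tissue macrophages, ran from 0.0731 to 0.505 TPM in WT and 0.219 to 1.41 in Col6a2-/-, a change of 0.57 (SE 0.10, limma adjusted p 0.000179). It reached 1 TPM in Col6a2-/- 5-week libraries alone, so it was tested through the group where it is high. Its annotated span runs across other genes, among them Wdr48 on the opposite strand, itself called with a change of 0.31 (adjusted p 0.00681) at 4.59 TPM in the median. Cxcr4, found on leukocytes and muscle stem cells, ran from 1.17 to 3.51 TPM in WT and 1.67 to 5.04 in Col6a2-/-, a change of 0.61 (SE 0.12, limma adjusted p 0.000728). The genotypes overlapped for Cx3cr1 and Cxcr4 and did not for Ccr2. In bulk muscle, more cells of a type and more RNA per cell cannot be told apart.

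**Figure D3:**
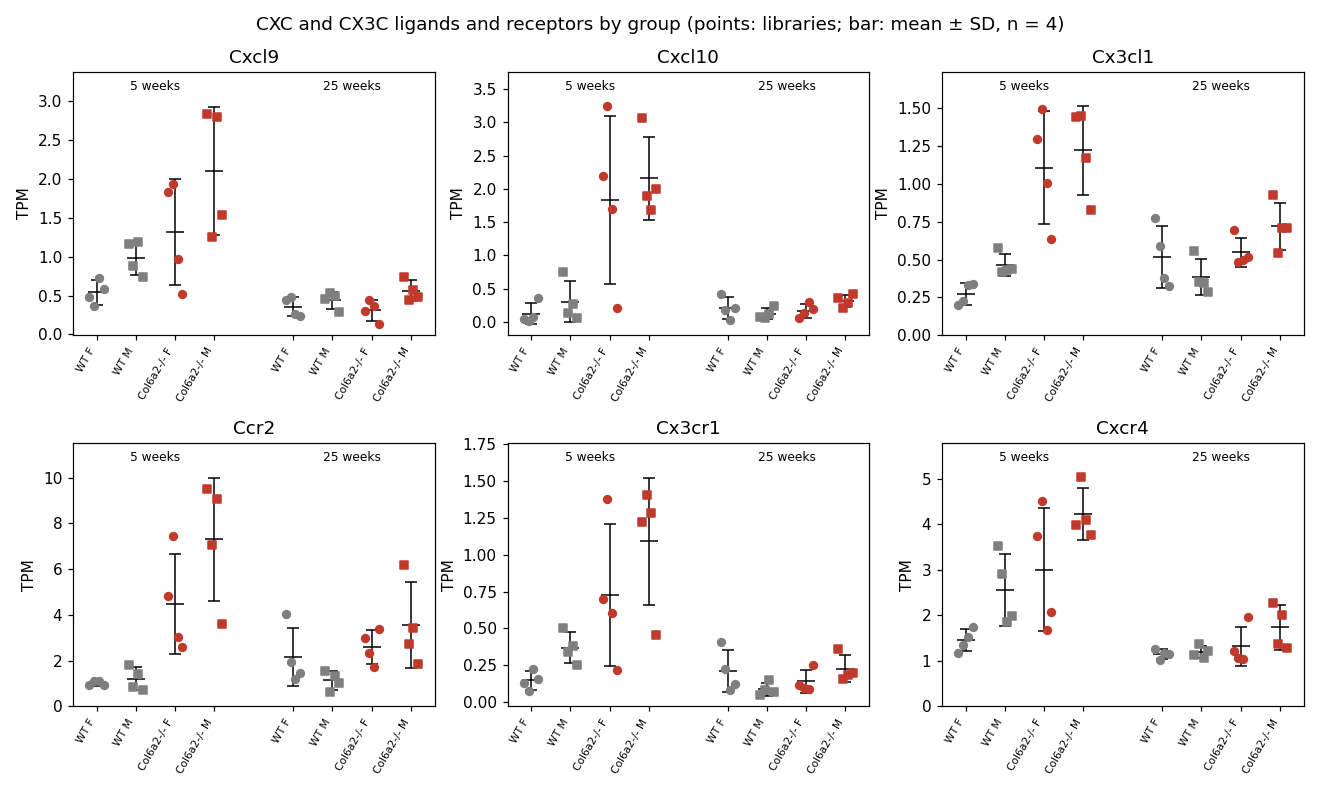
TPM of Cxcl9, Cxcl10, Cx3cl1, Ccr2, Cx3cr1 and Cxcr4 in each library (points), with the mean and SD of each group (n = 4). At 5 weeks the Col6a2-/- groups are high for all 6 genes, with female replicate 4 low for Cxcl10 (0.209 TPM), and at 25 weeks the genotypes overlap for each of them.

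Members below the filter were examined in a fit with no filter on TPM, which covered the 61 members above 0 in some library. In that fit 23 members were called at 5 weeks, all higher, where 11.2% of 32958 genes were called and 10.4% as higher. They included the 13 named above and Ccl3, Ccl4, Ccl5, Ccl22, Cxcl2, Ccr1, Ccr7, Cxcr3 and Xcr1, which all had group medians under 1 TPM. Ccl5 (RANTES), a ligand typical of T and NK cells, ran from 0.213 to 0.881 TPM in Col6a2-/- at 5 weeks. In WT it was listed at 0 in 5 of 8 libraries and reached 0.143 TPM at most. Its change was 0.62 (SE 0.07, adjusted p 1.03e-06). The genotypes did not overlap. Ccl4 was listed at 0 in all 8 WT libraries at 5 weeks and had up to 0.376 TPM in Col6a2-/-, with 1 of 8 at 0. Ccr1, the receptor for CCL6 and CCL9, had 0.126 to 0.380 TPM in WT and 0.253 to 1.25 in Col6a2-/- (change 0.39, SE 0.12, adjusted p 0.0385), and Cxcr3, the receptor of CXCL9 and CXCL10, had 0.0182 to 0.0957 and 0.0557 to 0.418 TPM (change 0.18, SE 0.04, adjusted p 0.00541). At 25 weeks 8 members were called with no filter, where 1.04% of genes were called and 0.968% as higher. They were Ccl2, Ccl6, Ccl7, Ccl9, both Ccl21a IDs, the chromosome 4 copy of Ccl21b and a scaffold copy of Ccl21b below the filter (change 0.28, adjusted p 0.0312), and Ccl5 (change -0.01) and Ccr1 (0.12) were not among them. From 5 to 25 weeks in Col6a2-/-, 18 members were lower and 4 higher with no filter, where 16.8% of genes were called, 14.3% as lower and 2.45% as higher; Ccl5 fell by 0.58 (adjusted p 1.25e-06). Ccr3, the receptor of CCL11, stayed at or below 0.713 TPM in 31 libraries, and the remaining one, WT 25-week female replicate 1, stood apart at 1.84.

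Libraries of a group differed in these values and in cell type markers, whose orders did not match in every group. Col6a2-/- 5-week female replicate 2 was the highest of its group for 13 of the 13 members called at that age, and replicate 4 was the lowest for 12. The 12 macrophage and monocyte markers, among them Adgre1, Cd68 and Csf1r, summed to 331 TPM in replicate 2 and 102 in replicate 4. These were the highest and lowest sums of that group. Replicates 2 and 4 had fibroblast marker sums of 1928 and 560 TPM. They had 12877 and 10903 genes at 1 TPM or more, and coverage ratios of 7.45 and 13.7. In WT 5-week females replicate 4 was the highest for 8 of the 13 members and had the lowest macrophage sum, 62.3 TPM. Replicate 2 there was the lowest for 6 members and had the highest macrophage sum, 68.0 TPM. Over the ages, the sum ran from 62.3 to 101 TPM in WT and 102 to 331 in Col6a2-/- at 5 weeks, and from 43.6 to 114 and 109 to 200 at 25 weeks. All 11 markers that could be tested were higher at 5 weeks (median change 1.02) and 6 of 11 at 25 weeks (median 0.57), and Chil3, the untested one, was listed at 0 in 15 libraries. T cell markers summed to 0.182 to 0.635 TPM in WT and 0.722 to 2.71 in Col6a2-/- at 5 weeks, with none of 8 above the filter. Of 7 neutrophil markers, 2 were tested and not called at either age, and Ly6g was listed at 0 in all 32 libraries. NK cell markers, none of 6 above the filter, summed to 0 to 0.424 TPM in WT and 0.238 to 2.27 in Col6a2-/- at 5 weeks. Fibroblast markers were higher for 5 of 8 at 5 weeks and 4 of 8 at 25 weeks, with sums of 610 to 1453 TPM in WT and 560 to 1983 in Col6a2-/- at 5 weeks. At 5 weeks 3 of 3 tested satellite cell markers, 2 of 3 of dendritic cells and 3 of 7 of endothelium were higher. Of the myofibre, 3 of 7 were lower. Untested at under 1 TPM, Pax7 and Calcr of satellite cells had medians of 0.437 and 0.375 TPM in WT and 0.450 and 0.340 in Col6a2-/-. Of untested dendritic cell markers, medians went from 0.292 in WT to 0.177 for Siglech, 0.0242 to 0.197 for Flt3 and 0.0701 to 0.142 for Clec9a. The 1 tested of 5 platelet markers, Itga2b, was higher (change 0.47), at medians of 0.4085 and 1.02 TPM. Gp1ba, Gp9, Gp6 and Tubb1 had medians of at most 0.0460 TPM in either genotype. At 25 weeks 1 of the 3 tested dendritic cell markers was higher. Over all tested genes, 23.2% were higher at 5 weeks and 4.47% at 25 weeks. The part of these cell types in the chemokine values was not tested. Without replicate 2 of the 5-week Col6a2-/- females 12 members were called at 5 weeks, and without replicate 4 of that group 14 were.

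At 25 weeks, Ccl6, Ccl9, Ccl2, Ccl7, Ccl8 and 5 IDs of the Ccl21 family were higher in Col6a2-/- muscle, and Cxcl10, Cxcl9, Ccl12, Cxcl16, Cx3cl1 and the receptors were not called. The count was 10 of 24 higher and none lower, where 4.70% of tested genes were called, 4.47% as higher and 0.234% as lower. The 24 had a median change of 0.31, against 0.0823 for all genes (-0.0206 with median-of-ratios factors, where 12 were called, Cxcl14 as lower). Of the 16 members that reached 1 TPM in at least 4 WT libraries 8 were called, and 2 of the other 8. Ccl2 had 0.321, 0.709, 0.319 and 0.279 TPM in WT females and 0.499, 0.130, 0.357 and 0.270 in WT males. Col6a2-/- females had 1.77, 1.29, 1.87 and 1.01 TPM and males 2.004, 2.05, 2.33 and 1.49. All Col6a2-/- libraries lay above all WT libraries, with a log2 change of 0.996 (SE 0.18, limma adjusted p 0.00168) and a ratio of means of 4.79. Ccl7 did not overlap either, at 0 to 0.382 TPM in WT and 0.600 to 1.96 in Col6a2-/-, a change of 0.78 (SE 0.18, limma adjusted p 0.00952). Both genes reached 1 TPM in Col6a2-/- libraries alone, so they were tested through the genotype in which they are high. For comparison, 0.663% of tested genes were higher without overlap at 25 weeks.

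Ccl9 ran from 0.642 to 3.59 TPM in WT (median 1.15) and from 2.55 to 5.28 in Col6a2-/- (median 3.87) at 25 weeks, a change of 1.03 (SE 0.15, limma adjusted p 0.000135). Ccl6 ran from 2.57 to 17.8 TPM in WT (median 4.22) and from 9.76 to 26.03 in Col6a2-/- (median 12.2), a change of 1.23 (SE 0.21, limma adjusted p 0.000817). The overlap came from WT female replicate 1, at 17.8 TPM of Ccl6 and 3.59 of Ccl9, and the other 7 WT libraries were at or below 5.92 and 1.83 TPM. This library was the highest of its group in 10 of the 13 members called at 5 weeks, and it also had the highest macrophage marker sum of its group, 114 TPM. Ccl8 had 0.339 to 1.34 TPM in WT and 1.34 to 9.71 in Col6a2-/-, a change of 1.27 (SE 0.30, limma adjusted p 0.0145), which was not called with no filter on TPM (adjusted p 0.0517). Ccr2 had 0.644 to 4.03 TPM in WT and 1.72 to 6.19 in Col6a2-/-. Its change of 0.64 (SE 0.20, limma adjusted p 0.0635) was not called, but was with median-of-ratios factors (adjusted p 0.0282). Cxcl10 was low in both genotypes, at 0.0259 to 0.422 TPM in WT and 0.0543 to 0.418 in Col6a2-/-.

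The Ccl21 genes encode a ligand of CCR7 made by lymphatic endothelium and lymphoid stroma, and exist in mice as near-identical copies. Ccl21a (chr4:42772860-42773993, − strand) and the copy of Ccl21b on chromosome 4 (chr4:42255767-42256432, + strand) differ at 2 of 402 coding bases, and the other 4 IDs lie on unplaced scaffolds, so how reads were divided among them is uncertain. Summed over the 6 IDs, WT libraries at 25 weeks had 13.2, 11.1, 14.8 and 9.70 TPM in females and 8.49, 5.39, 5.24 and 15.1 in males. Col6a2-/- libraries had 18.4, 16.8, 13.0 and 25.5 TPM in females and 17.9, 16.7, 11.8 and 20.1 in males. The genotypes overlapped, and the change of the sum was 0.75 (SE 0.17, limma adjusted p 0.0106), against 0.11 at 5 weeks (adjusted p 0.647). The difference between the ages was not called (adjusted p 0.478). Singly, the 5 called IDs had changes of 0.41 to 0.65 at 25 weeks. Ccl21c was no longer called without WT female replicate 4, WT male replicate 3 or Col6a2-/- female replicate 4 of that age (adjusted p up to 0.0574), and the scaffold copy of Ccl21b with the change of 0.41 lost its call when any 1 of 8 libraries was left out (adjusted p up to 0.0789). These were WT female 4, WT male 1, 2 and 3, Col6a2-/- female 1 and 4, and Col6a2-/- male 1 and 4. The calls of Ccl21c and of this Ccl21b copy were also lost with no filter (adjusted p 0.0529 and 0.0793) and with quantile normalization. With the copies summed, 6 of 20 members were called at 25 weeks.

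**Figure D4:**
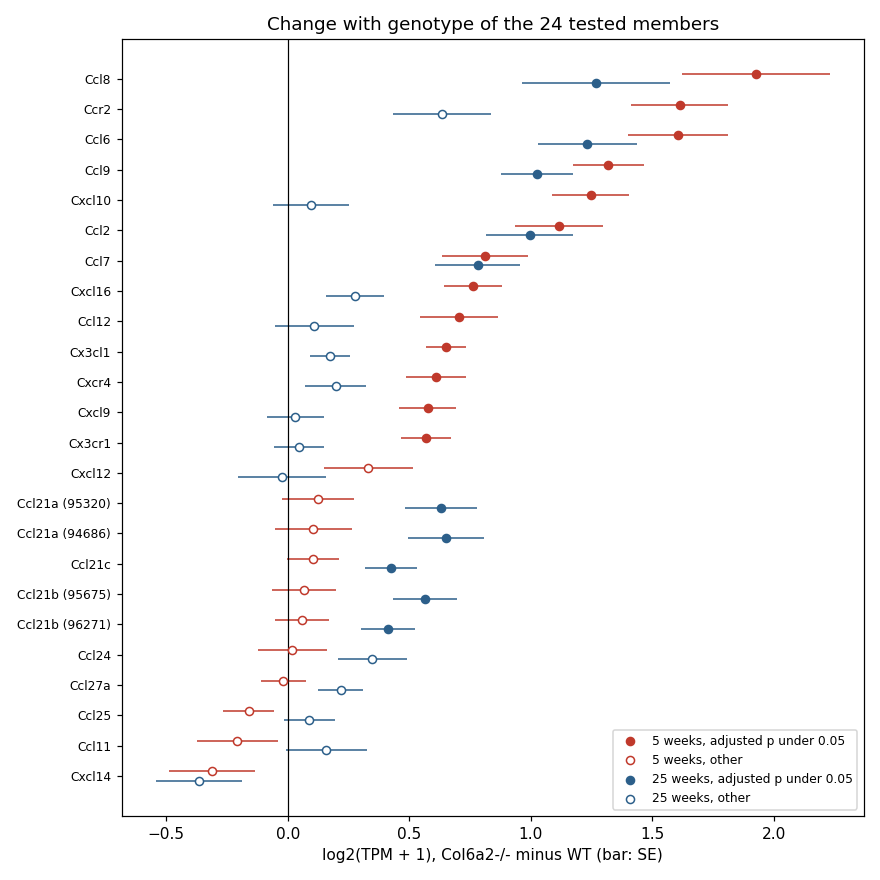
Log2 change with SE, Col6a2-/- minus WT on the log2(TPM + 1) scale, of the 24 tested members at 5 weeks (red) and 25 weeks (blue); filled points have an adjusted p under 0.05. Ccl6, Ccl9, Ccl2, Ccl7 and Ccl8 are filled at both ages, and Cxcl10 is filled at 5 weeks (1.25) but not at 25 weeks (0.10).

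The genotype difference itself was compared between the ages. Cxcl10 was the 1 member of 24 called, where 0.492% of tested genes were called and 0.421% as lower at 25 weeks. Its difference between genotypes was smaller at 25 weeks by 1.15 on the log2 scale (change -1.15, SE 0.22, limma adjusted p 0.00695), and all 32 fits that left out a library kept the call, while a pseudocount of 0.1 in place of 1 gave an adjusted p of 0.0593. Cxcl10 reached 1 TPM in Col6a2-/- libraries at 5 weeks alone, so it was tested through the group where it is high. Unadjusted p was under 0.05 for 13 of 24 members, and for 898 of all 12817 genes. Differences that were not called included those of Cx3cl1 (-0.48, SE 0.12, adjusted p 0.0589), Cx3cr1 (-0.52, adjusted p 0.124), Ccr2 (-0.98, adjusted p 0.164), Cxcl9 (-0.54, adjusted p 0.216) and Ccl12 (-0.60, adjusted p 0.486). Ccl2 and Ccl7 had differences of -0.12 and -0.03. In the fit with no filter, 3 members were called, where 0.349% of genes were: Cxcl10, Ccl5 (-0.64, adjusted p 0.000644) and Ccl4 (-0.25, adjusted p 0.00457). The count rested on single libraries: it was 6 without Col6a2-/- 5-week female replicate 4, 4 without 5-week male replicate 4 of that genotype, and 2 without WT 25-week female replicate 4 or Col6a2-/- 25-week male replicate 1.

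Between 5 and 25 weeks, Cxcl14, Ccl25 and Cxcr4 became lower in WT muscle, 3 of 24 members lower and none higher, where 19.8% of tested genes were called, 15.3% as lower and 4.47% as higher. The share was near the background. With median-of-ratios factors 4 were lower and 1, Cxcl12, higher. Median Cxcl14 went from 16.7 to 11.7 TPM (change -0.63, SE 0.18, limma adjusted p 0.0127). Ccl25 (TECK), the thymic and gut ligand of CCR9, went from 2.83 to 1.91 TPM in the median (change -0.43, SE 0.11, limma adjusted p 0.00443). It overlaps Elavl1 on the opposite strand. Cxcr4 went from 1.79 to 1.17 TPM (change -0.43, SE 0.12, limma adjusted p 0.0142). Cell type markers that were lower in the same comparison were 3 of 8 for fibroblasts, 2 of 5 for tenocytes, 2 of 4 for Schwann cells, 2 of 7 each for endothelium and the myofibre, 1 of 3 for satellite cells and 1 of 11 for macrophages and monocytes, and 1 each of B and dendritic cells was higher. Their part was not tested.

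In Col6a2-/- muscle 11 members were lower and 2 higher at 25 than at 5 weeks, where 34.2% of tested genes were called, 28.8% as lower and 5.41% as higher. The split depends on scaling: the median change of all genes was -0.136 on the deposited scale and 0.0172 with median-of-ratios factors, which gave 8 lower and 8 higher members, and quantile normalization gave 10 lower and 8 higher. The added higher members were the 5 tested Ccl21 IDs and Ccl27a. The filter bears on the count as well: of the 11 lower members, Ccl12, Cx3cl1, Cx3cr1, Cxcl10 and Cxcl9 reached 1 TPM in no 25-week library and so passed through 5-week libraries. Median Cxcl10 went from 1.94 TPM to 0.249 (change -1.19, SE 0.16, limma adjusted p 1.28e-06), with 1 of 8 libraries at 5 weeks within the range at 25 weeks. Median Cxcl9 went from 1.69 to 0.441 TPM (change -0.87, SE 0.12, limma adjusted p 2.25e-06). Median Ccl12 went from 1.20 to 0.197 TPM (change -0.91, SE 0.16, limma adjusted p 8.49e-05), with 2 of 8 older libraries listed at 0. Ccl8, Cxcl16, Cx3cl1, Cx3cr1, Ccr2, Cxcr4 and Cxcl14 were also lower, with changes of -0.40 to -1.05. Cx3cr1, for one, went from a median of 0.960 TPM to 0.172. Ccl2 (-0.22, adjusted p 0.352), Ccl7 (-0.28, adjusted p 0.227) and Ccl6 (-0.33, adjusted p 0.218) were not called. Ccl9 was lower by a change of -0.42 (SE 0.15, limma adjusted p 0.0283), a call lost when any 1 of 8 libraries was left out (adjusted p up to 0.0819). These were Col6a2-/- female 1 and 2 and male 1 and 4 at 5 weeks, and female 2 and 3 and male 2 and 4 at 25 weeks. It was also lost with no filter, with 3 other scalings and in a fit on the compared groups, at adjusted p values up to 0.135. Ccl24 (eotaxin-2) was higher, from a median of 1.13 to 1.88 TPM (change 0.45, SE 0.14, limma adjusted p 0.0157). Median Ccl11 went from 10.4 to 12.6 TPM (change 0.44, SE 0.17, limma adjusted p 0.04), with a highest library of 30.3 TPM. Its call was lost when any 1 of 9 libraries was left out (adjusted p up to 0.116): Col6a2-/- female 1, 3 and 4 and male 2 and 3 at 5 weeks, and female 1 and male 1, 3 and 4 at 25 weeks. The Ccl11 call was also lost with no filter and in a fit on the compared groups. Of the macrophage and monocyte markers, 9 of 11 tested were lower with age in Col6a2-/- muscle (median change -0.70). So were 4 of 4 tested for Schwann cells (median -0.97), 2 of 3 for satellite cells, 3 of 7 for endothelium and 3 of 8 for fibroblasts. Likewise lower were 2 of 5 for tenocytes, 2 of 7 for the myofibre, 1 of 3 for dendritic cells and Itga2b, the 1 tested platelet marker. Of the markers in these lists 1, of dendritic cells, was higher, as was the 1 tested B cell marker. The part of these cell types was not tested.

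Within each sex 4 libraries were compared with 4, and no member's genotype difference was called as unlike between the sexes. In 5-week females 13 of 24 members were higher, where 12.9% of tested genes were called and 12.3% as higher. Among them were the 8 members that reached 1 TPM in fewer than 4 WT libraries and so passed the filter through Col6a2-/- muscle. The count in 5-week females was 7 without Col6a2-/- replicate 2. In 5-week males 9 were higher, where 5.03% of tested genes were called and 4.55% as higher. Those 9 included Cxcl9, Cxcl10, Cxcl16, Cx3cl1 and Cx3cr1, which passed the filter in the same way. So did Ccl2, which is among the 25-week male calls given below. With median-of-ratios factors 8 were higher and 2 lower in 5-week males. Ccl2 had changes of 1.47 (SE 0.25, limma adjusted p 0.000441) in females and 0.76 (adjusted p 0.0818) in males at that age. Ccr2 had 1.36 (adjusted p 0.00251) and 1.87 (adjusted p 8.76e-05). In 25-week females limma called 0 of 24 members, where 0.00780% of tested genes were called; unadjusted p was under 0.05 for 10 members, and for 621 of all genes. Ccl2 and Ccl9 had changes of 0.82 and 0.83 there. Without WT female replicate 1, 2 members were called. In 25-week males 7 were higher, where 3.03% of tested genes were called and 2.91% as higher: Ccl6 (1.53, adjusted p 0.00428), Ccl9 (1.23, adjusted p 0.00171), Ccl2 (1.18, adjusted p 0.0119), Ccr2 (1.03, adjusted p 0.0436), Ccl21a on chromosome 4 (0.80, adjusted p 0.0441) and on a scaffold (0.82, adjusted p 0.0316), and the chromosome 4 copy of Ccl21b (0.72, adjusted p 0.0326). That count was 4 without WT 25-week male replicate 1, 3 without replicate 3, 2 without replicate 2 or without Col6a2-/- 25-week male replicate 1, and 11 without Col6a2-/- 5-week female replicate 2 or 4. Ccl6 and Ccl9 kept their call in all 32 fits that left out a library (adjusted p up to 0.0292 and 0.0137). Ccl2 lost it without WT male 2 or Col6a2-/- male 1 of that age (adjusted p up to 0.0533). Ccr2 lost its call in 11 of the 32 (adjusted p up to 0.237): without WT male 1, 2, 3 or 4, WT female 2 or Col6a2-/- male 1 or 3 at 25 weeks, or WT female 1 or 3, Col6a2-/- female 1 or Col6a2-/- male 2 at 5 weeks. Ccl21a on chromosome 4 lost it in 15 (adjusted p up to 0.173): without WT male 1, 2 or 3, WT female 2 or Col6a2-/- male 1, 2, 3 or 4 at 25 weeks, or WT female 1, 2 or 3, WT male 1, Col6a2-/- female 1 or Col6a2-/- male 2 or 3 at 5 weeks. The scaffold copy of Ccl21a lost it in 4, without WT male 2 or 3 or Col6a2-/- male 1 or 4 of 25 weeks, and Ccl21b in those 4 and without WT male 1 (adjusted p up to 0.137 for both). With no filter, Ccr2 and these 3 Ccl21 IDs were not called. Rescaling without mitochondrial and Rn7s genes also ended the call of Ccr2, quantile normalization those of the 3 Ccl21 IDs, and median-of-ratios factors or a fit on the compared groups that of Ccl21a on chromosome 4. Macrophage and monocyte markers were higher for 9 and 7 of 11 in 5-week females and males, and for 0 and 4 of 11 at 25 weeks. Fibroblast markers were higher for 2 and 0 of 8 in 5-week females and males, and for 0 and 2 of 8 at 25 weeks. Lists of other cell types had at most 1 marker higher and 0 lower. The part of these cell types was not tested. Genotype by sex gave 0 of 24 calls in limma, where 0.0156% of tested genes were called, and an unadjusted p under 0.05 for 1 member, Ccr2 (0.64 higher in males, SE 0.28, adjusted p 1.0), and for 206 of all 12817 genes.

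Over all genotypes and ages 1 of 24 members differed by sex, where 3.05% of tested genes were called and 1.87% as higher in males. This was Cxcl14, higher in males by 0.47 (SE 0.13, limma adjusted p 0.0333), and the call was lost when any 1 of 15 libraries was left out (adjusted p up to 0.0624). By group, these were WT 5-week female 3 and 4 and male 1 and 3, WT 25-week female 3 and 4 and male 4, Col6a2-/- 5-week female 1, 3 and 4 and male 1, and Col6a2-/- 25-week female 1 and 2 and male 1 and 3. With median-of-ratios factors 3 were higher in males and 1 lower. A share this near to the background is not a result about chemokine genes.

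Genes around the chemokine system were counted from 3 lists written from general knowledge, to be read against the 23.2% of all tested genes called as higher at 5 weeks and the 4.47% at 25 weeks. Of 12 genes for ligand processing, atypical receptors and related chemoattractants, 9 were tested and 4 were higher at each age. At 5 weeks these were Cd74 (1.99, SE 0.23, limma adjusted p 5.66e-07), the invariant chain and receptor for MIF, Pf4 (platelet factor 4; 0.64, adjusted p 0.0164), Cmklr1, the chemerin receptor (0.57, adjusted p 0.00289), and Mif (0.30, adjusted p 0.0088). At 25 weeks Ackr3, an atypical receptor that takes up CXCL12, had a change of 0.61 (SE 0.09, limma adjusted p 0.000275), against 0.06 at 5 weeks (adjusted p 0.638). Of 24 genes for signalling downstream of the receptors, 19 were tested, and 14 were higher at 5 weeks and 3 at 25 weeks. Small adjusted p values at 5 weeks were those of Arrb2, an arrestin that desensitises receptors (0.82, adjusted p 4.83e-06), Vav1 (0.63, adjusted p 1.8e-05) and Dock2 (0.75, adjusted p 4e-05), which act on Rac in leukocytes, and Rac2 (0.70, adjusted p 0.000179). At 25 weeks Dock2 (0.60), Rgs2 (0.59) and Rac2 (0.42) were higher. Of 18 inducers of chemokine genes, 14 were tested, and 13 were higher at 5 weeks and 1, Stat3 (0.45, adjusted p 0.0151), at 25 weeks. The 5-week calls were led by Nfkb2 (0.74, adjusted p 2.88e-06), Nfkbiz (0.49, adjusted p 5.08e-05), Stat3 (0.62, adjusted p 0.000148), Tlr2 (0.69, adjusted p 0.000174) and Myd88 (0.53, adjusted p 0.000466). The cytokines Tnf, Il1b, Il6 and Ifng did not pass the filter, with medians of at most 0.206 TPM in any genotype and age, and Ifng was listed at 0 in 21 libraries.

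Of the 13 members called at 5 weeks, 8 lie in gene clusters on chromosomes 11 and 5. Distances are between the lowest coordinates of the genes. Counted from Ccl2, Ccl7 begins at 10.1 kb, Ccl11 at 22.3 kb, Ccl12 at 66.3 kb and Ccl8 at 79.6 kb, and Ccl11 was the tested gene of these that was not called. From Ccl5 on the same chromosome, Ccl9 begins at 47.1 kb, Ccl6 at 62.1 kb, Ccl3 at 122.1 kb and Ccl4 at 136.8 kb. All 5 had a positive change at 5 weeks in the fit with no filter. In the main fit 80.0% of all tested genes had a positive change at that age. On chromosome 5, Cxcl10 begins 25.3 kb from Cxcl9 and Cxcl11 at 38.2 kb, where Cxcl11 had a change of 0.01 at 5 weeks with no filter (adjusted p 0.839). These neighbours were noted after the values were seen and carry no test.

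**Figure D5:**
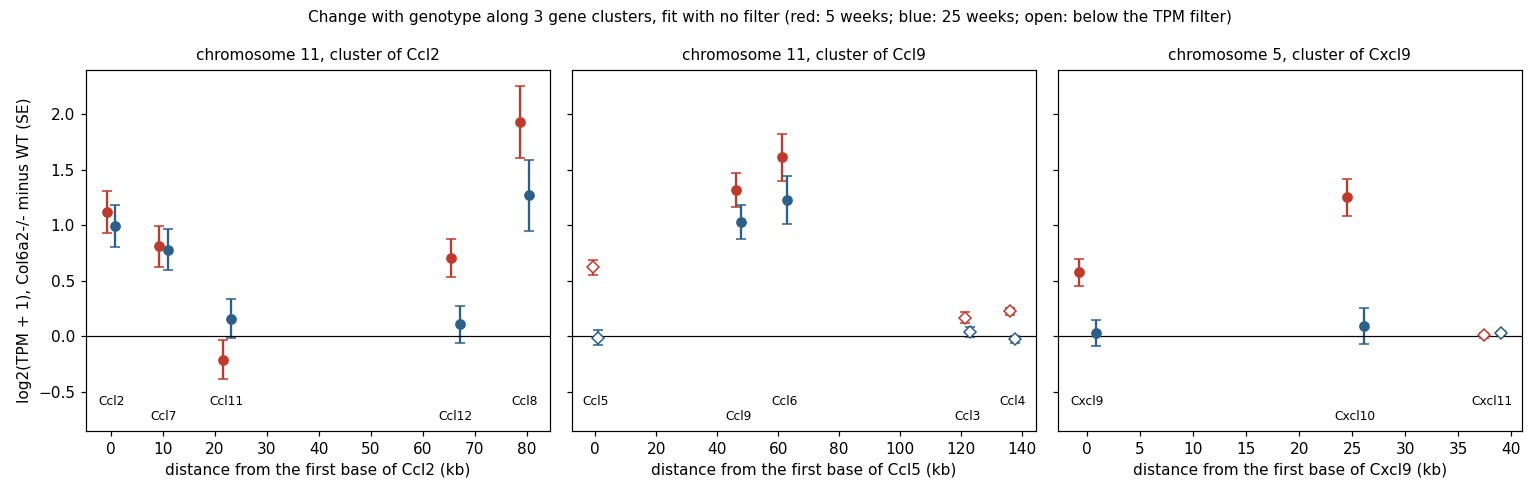
Log2 change with SE at 5 weeks (red) and 25 weeks (blue), from the fit with no filter on TPM, against distance in kb along 3 chemokine gene clusters; open points are genes below the filter of the main fit. In the Ccl2 cluster Ccl11, at 22.3 kb, stays near 0 between neighbours that are high at both ages or at 5 weeks.

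The promoters of Cxcl10 and Ccl9 are shown because they were the 2 of the 10 called genes with a promoter entry that held matches to the motifs searched. Each line gives the 250 bases before the gene's start from RefSeq (build GRCm38.p6), 5′ to 3′ on the gene's strand, chr5:92348890-92349139 (−) for Cxcl10 and chr11:83578637-83578886 (−) for Ccl9. Capitals mark matches on either strand to the NF-kB consensus, to GAAA followed by any 2 bases and GAAA (an interferon response element) or to TGANTCA (an AP-1 site).
Cxcl10: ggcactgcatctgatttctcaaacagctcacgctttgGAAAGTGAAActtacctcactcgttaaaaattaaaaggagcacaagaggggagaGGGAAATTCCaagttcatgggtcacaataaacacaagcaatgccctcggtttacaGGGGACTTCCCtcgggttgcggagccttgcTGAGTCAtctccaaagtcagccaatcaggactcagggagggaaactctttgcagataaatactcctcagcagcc
Ccl9: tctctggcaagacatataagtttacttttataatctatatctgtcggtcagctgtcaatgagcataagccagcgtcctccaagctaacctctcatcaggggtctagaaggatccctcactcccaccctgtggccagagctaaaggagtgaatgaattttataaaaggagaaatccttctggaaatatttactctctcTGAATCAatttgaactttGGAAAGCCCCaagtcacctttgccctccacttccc
NF-kB consensus matches were found in both, TGANTCA in both and the interferon element in Cxcl10, and overlapping NF-kB matches in Cxcl10 run together in the capitals. Of 32817 promoters of this length, 7.25% held an NF-kB match, 6.75% held TGANTCA and 2.97% held the interferon element. The PU.1-type motif GAGGAAGT was in none of the 10 and in 2.44% of all promoters. Among the 42 member names with an entry, genes not called at 5 weeks held matches too. For NF-kB these were Ccl1, Ccl20, Ccr1, Ccr3, Ccr6, Cxcl1, Cxcl2 and Cxcl3. TGANTCA was in Ccl27a, Ccl27b, Ccr3 and Ccr4, the interferon element in Ccl19 and Cxcl14, and GAGGAAGT in Cxcr3. A match describes these letters and shows neither a bound site nor a cause. Ccl2, Ccl7 and Cxcl16 had no entry.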

How the data were processed

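Quadriceps RNA of 32 mice was profiled. Per the labels' protocols, cryosections gave RNA that passed an integrity limit, and a TruSeq RNA kit was used for libraries, sequenced in pairs. FastQC, MultiQC, Trimmomatic, HISAT2, SAMtools and StringTie, and the builds GRCm38 and mm10, are named in the submitters' processing notes, without versions; strand use is not given in the sources used here. The authors deposited TPM, FPKM and coverage per gene, per the file headers. TPM was analysed; the deposited FPKM values and the deposited coverage signal served only as a ratio for relative depth. TPM was summed per gene ID.

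Values were analysed as log2(TPM + 1) for the 12817 of 53801 IDs that reached 1 TPM in 4 or more libraries, with limma 3.58.1 (lmFit, eBayes with trend) in R 4.3.3, a mean for each of 8 groups over all 32 libraries, and Benjamini-Hochberg adjustment over all tested genes at 0.05. Tests were two-sided, in 11 comparisons: genotype at both ages, overall and within a sex, its interaction with age and with sex, the ages within a genotype, and the sexes. The design had also allowed for counts; its branch for normalised values was used. The script was tested on simulated data. No files were identical, and the highest correlation between libraries was 0.984. Tables were handled with the data.table package (version 1.17.8), Python 3.11.15, pandas 2.3.3 and numpy 2.4.6, and plots drawn with matplotlib 3.10.9.

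The members, the marker and pathway lists and the motifs were chosen with earlier results of these data known. Named with library values were members called in at least 1 comparison and their known partners; others are given by counts and ranges. Some results are not reported here. From pathway lists, up to 5 called genes per comparison and direction were named. Alternatives changed the pseudocount, filter, scaling, weights, model and libraries; summing near-identical copies was added after seeing the data.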

Additional observations from a re-analysis of the deposited data

Results flagged for a closer look

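The 22 members called in at least 1 comparison of the main fit were examined for libraries far from the other 3 of their group. Single libraries stood apart in 13 of 176 groups of 4. They were judged by the gap to the nearest library against the whole range (above the critical value of Dixon for 4 values). Chance flags about 1 in 20 groups. Cxcl12 and Ccl27a were not examined, though Cxcl12 had 19.4 TPM in Col6a2-/- 25-week male replicate 1 (others 10.05 to 11.3). Among CC ligands, Ccl6 was high in WT 25-week female replicate 1 (17.8 TPM, others 4.68 to 5.92) and low in WT 25-week male replicate 2 (2.57, others 3.66 to 3.77). Ccl11 was high in WT 25-week male replicate 1 (14.6 TPM, others 9.87 to 10.5) and in Col6a2-/- 25-week female replicate 1 (30.25, others 9.88 to 12.5). Ccl24 was high in WT 5-week female replicate 1 (1.75 TPM, others 0.816 to 0.947) and low in Col6a2-/- 25-week male replicate 4 (1.25, others 1.82 to 1.91). Ccl2 was high in WT 25-week female replicate 2 (0.709 TPM, others 0.279 to 0.321).

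Among the other ligands, Cxcl10 was high in WT 5-week female replicate 4 (0.358 TPM, others 0.0171 to 0.0714), Cxcl14 in Col6a2-/- 5-week female replicate 2 (22.4, others 8.45 to 10.8), and Cxcl16 low in WT 5-week female replicate 2 (0.544, others 0.767 to 0.796). Cx3cl1 was high in WT 5-week male replicate 1 (0.574 TPM, others 0.419 to 0.441) and in Col6a2-/- 25-week female replicate 1 (0.694, others 0.484 to 0.517). The receptor Cx3cr1 was high in Col6a2-/- 25-week female replicate 4 (0.254 TPM, others 0.0907 to 0.118). Col6a2-/- 25-week female replicate 1 stood apart for 2 genes, Ccl11 and Cx3cl1.

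The genotype difference of Cxcl10 differed between the ages, by -1.15 on the log2(TPM + 1) scale (SE 0.22, limma adjusted p 0.00695): 7 of 8 Col6a2-/- libraries at 5 weeks had 1.68 TPM or more and female replicate 4 had 0.209, while all 8 Col6a2-/- libraries at 25 weeks had 0.418 or less. The call is lost with a pseudocount of 0.1 (adjusted p 0.0593).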

How the results depend on the processing

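Counts of called members moved by over 1.5 times as follows. With no filter on TPM they were 23 at 5 weeks, 3 in 25-week males, 3 for genotype by age, 22 for age in Col6a2-/- (4 higher, 18 lower) and 0 for sex; with at least 5 TPM, 8 members were tested, with 4 called at each age (4 in 5-week females, 4 in males of either age), 0 for genotype by age, 1 for age in WT and 5 for age in Col6a2-/-; with 0.5 TPM, genotype by age gave 3. A pseudocount of 0.1 gave 11 in 25-week males, 0 for genotype by age and 3 for sex, and 0.5 gave 3 for sex. Rescaling without mitochondrial and Rn7s genes gave 2 for genotype by age and 3 for sex; median-of-ratios factors gave 2, 5 for age in WT (1 higher, 4 lower) and 4 for sex (3 higher, 1 lower); quantile normalization gave 4 in 25-week males, 3 for genotype by age and 5 for sex (3 higher, 2 lower), and at 5 weeks 15 (13 higher, 2 lower). Array weights gave 1 in 25-week females, 13 in 25-week males, 6 for genotype by age, 6 for age in WT and 8 for sex (3 higher, 5 lower). A fit on the compared groups gave 8 in 5-week females and 1 in 25-week females, and summed copies gave 6 at 25 weeks. Leaving out each library in turn gave 12 to 14 at 5 weeks, 8 to 11 at 25 weeks, 7 to 16 and 7 to 12 in 5-week females and males, 0 to 2 and 2 to 11 in 25-week females and males, 1 to 6 for genotype by age, 0 for genotype by sex, 3 to 4 and 11 to 14 for age in WT and Col6a2-/-, and 0 to 3 for sex. Deviations of same-numbered libraries had a median correlation of 0.0322 (112 pairs, -0.34 to 0.349, 77 below 0.1). For libraries with different numbers it was -0.0132 (336 pairs, -0.412 to 0.34, 271 below 0.1). These values do not settle whether the numbers pair mice. With the replicate number as a block, genotype by age gave 2 members, with Cx3cl1 added, and sex gave 2. No other count moved by over 1.5 times with the block. Of all 70 calls of single members, those given above only as counts included, 50 were kept in every setting run. In at least 1 setting 20 were lost, and 0 reversed. Among calls given only as counts, those lost were Ccl7, Ccl8, Ccl12, Cxcl9, Cxcr4 and Cx3cr1 in 5-week females. In 5-week males they were Cxcl9 and Cx3cr1. The causes of these shifts were not tested. Without counts, the precision of members below 1 TPM is unknown.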
